A study of Rattus norvegicus with 6 samples.

Results

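Glutathione S-transferases were examined in primary rat chondrocytes with and without retinoic acid. The 10 genes of the set were Gstm1, Gstm2, Gstm4, Gstm5, Gstp1, Gsta4, Gstt1, Gstt2, Gsto1 and Gstk1, matched by symbol. Gstm5 among them is a gene the study lists for its difference between these samples. Of the 10 symbols, 9 had a row among the 18923 genes of the count tables, and all 9 passed the filter on low counts. Gstm2 had no row with that symbol and was not analysed here. The cells were wild-type chondrocytes of newborn female Sprague-Dawley rats at passage 1 or 2. All cells grew in high-glucose DMEM with fetal bovine serum and penicillin-streptomycin. RA samples received 1 µM all-trans retinoic acid over 24 h, and CON samples were kept for 24 h without it. The sources used here name no solvent control. Each group had 3 samples, described as independent without naming separate animals or cultures, so p-values measure the spread between these samples only.

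Glutathione S-transferases join the tripeptide glutathione to reactive compounds, which are then exported from the cell. The cytosolic enzymes fall into classes named by Greek letters, and in this set Gstm genes belong to the mu class, Gstp1 to pi, Gsta4 to alpha, Gstt genes to theta, Gsto1 to omega and the mitochondrial Gstk1 to kappa. Many family members are known targets of NRF2, a transcription factor that binds antioxidant response elements, and genes of one class often lie side by side as close copies.

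The promoters of the genes on which the results turn, Gstp1 and Gstm5, are shown for the elements just named. Each runs from 250 bases before to 50 bases after the RefSeq start of the gene in the assembly GRCr8 and is written on the strand of the gene. Gstp1 lies at chr1:210769656-210769955 on the minus strand, and Gstm5 at chr2:198219519-198219818 on the plus strand. Capitals mark matches to the antioxidant response element core TGACNNNGC and to the AP-1 site TGACTCA, both searched on both strands.
Gstp1: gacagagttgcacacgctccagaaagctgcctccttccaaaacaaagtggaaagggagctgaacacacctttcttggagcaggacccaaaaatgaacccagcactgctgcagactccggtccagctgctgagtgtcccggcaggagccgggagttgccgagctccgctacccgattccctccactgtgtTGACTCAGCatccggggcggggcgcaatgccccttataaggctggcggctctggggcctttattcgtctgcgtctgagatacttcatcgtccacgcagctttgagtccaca
Gstm5: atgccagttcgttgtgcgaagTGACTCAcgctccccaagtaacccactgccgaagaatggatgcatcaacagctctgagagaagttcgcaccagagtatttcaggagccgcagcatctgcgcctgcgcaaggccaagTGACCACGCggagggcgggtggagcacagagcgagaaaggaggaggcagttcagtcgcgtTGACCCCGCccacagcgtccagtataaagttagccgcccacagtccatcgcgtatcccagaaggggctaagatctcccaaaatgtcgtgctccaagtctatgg
The Gstp1 promoter held the word TGACTCAGC at position -61, counted from the start at 1, and this word matched both motifs at once. The Gstm5 promoter held the core at -113 and at -53 and the AP-1 site at -229. Promoters were given for 8 of the 10 genes, not for Gstt1 and Gstt2. The core was found in 2 of these 8 promoters, Gstp1 and Gstm5, against 12.1% of 33469 rat promoters of the same length. Outside these 8 it was also found for Gsta1, Gsta3 (in 1 of its promoters), Gstm7 and Gstz1, and not for the other transferases searched. The AP-1 site was found in 3 of the 8, the third being Gsto1, against 4.63% of all promoters. The retinoic acid receptor repeat, a pair of AGGTCA words with 5 bases between them, was found in 0 of the 8 and in 0.00896% of all promoters. The closer repeat, with 2 bases between them, was also found in 0 of the 8, against 0.012% of all, and its single half-site AGGTCA was found in the promoter of Gstm1 alone, against 16.2% of all. Only these exact words were searched, and both repeats are so rare among all promoters that 0 of 8 carries no information. These matches describe letters in the window and not binding.

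The libraries held 29370025 to 38007486 counted reads, of which 12134 to 17151 fell on the 9 genes. A gene with no read could still stand for up to 3 reads by counting error, or 0.0789 to 0.102 CPM, which are counts scaled to library size. CON sample 1 stood apart within its group. The root mean square difference of log2 CPM over all tested genes was 0.459 and 0.49 between CON sample 1 and the other CON samples. It was 0.336 between CON samples 2 and 3, and 0.355 to 0.358 among the RA samples. Between CON and RA samples it was 0.473 to 0.599, a range that holds the 0.49 within CON. The retinoid target Cyp26a1 had a CON mean of 0.389 ± 0.162 FPKM, which are counts scaled to gene length and library size, and an RA mean of 4.01 ± 0.596 (SD, n = 3 each). A gene was called a differentially expressed gene (DEG) where edgeR's quasi-likelihood test gave an adjusted p below 0.05 and the log2 fold change passed 0.58 in size. Of 9 chondrocyte markers, all were detected and 8 were DEGs, each lower in RA. In these bulk samples, fewer cells of a type and less RNA per cell cannot be told apart.

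Of the 9 transferase genes, 1 was a DEG in edgeR's test, against 4.96% of the 13438 genes tested. The gene was Gstp1, which rose, as did 2.67% of all genes, while 0 of the 9 fell, against 2.29% of all genes. DESeq2 and limma also called Gstp1 alone, and no member was lower at the adjusted p alone in edgeR. The 9 log2 fold changes had a median of 0.033, against -0.0057 over all genes tested, with 6 of the 9 above 0. The CPM values of the groups did not overlap for 1 of the 9 genes, again Gstp1, while they did not overlap for 31.9% of all genes tested. An unadjusted p under 0.05 was reached by 2 of the 9, Gstp1 and Gstm5, and by 24% of all genes.

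**Figure D1:**
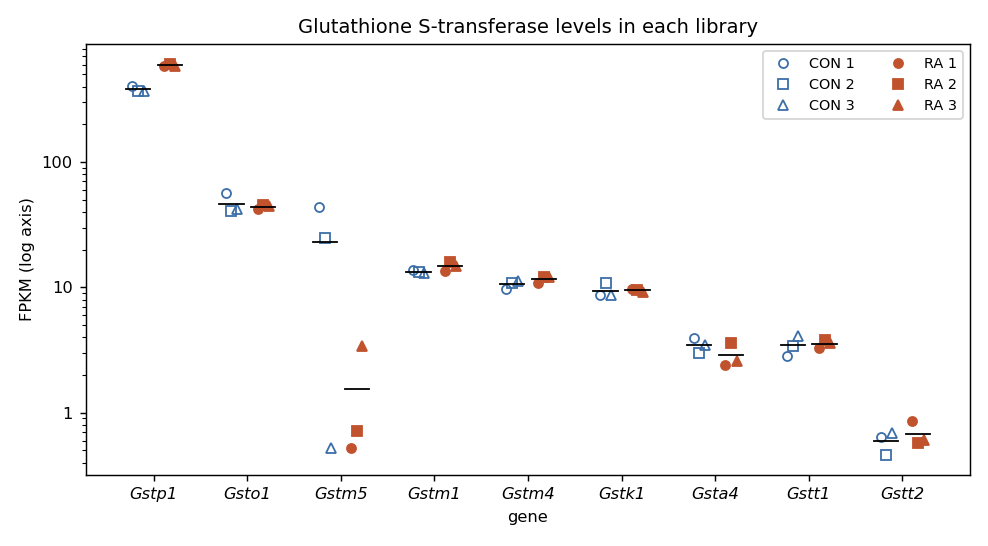
FPKM of the 9 transferase genes in each library on a log axis, with open blue symbols for CON, filled red symbols for RA, 1 symbol shape per sample number and a bar at each group mean of 3 samples. Gstp1 lies highest and its groups do not overlap, and Gstm5 spreads from 0.522 to 44.1 FPKM within CON.

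Gstp1 (ENSRNOG00000018237), the pi class enzyme, was the most abundant transferase in every library. Its FPKM was 407, 368 and 369 in CON samples 1, 2 and 3, and 580.2, 611 and 584 in RA samples 1, 2 and 3. Every RA sample lay above every CON sample, and the spread within each group was small beside the gap between them. The CON mean was 381 ± 22.1 FPKM and the RA mean 592 ± 16.6 (SD, n = 3 each). The fitted difference was 0.62 on the log2 scale (SE 0.0611), or 1.54-fold, higher in 3 of 3 RA samples, with a Benjamini-Hochberg adjusted p = 4.85e-04 in edgeR. The 95% interval of the log2 fold change, 0.48 to 0.76, includes the threshold of 0.58. In the 6 fits that each omitted 1 sample it lay between 0.59 and 0.67, and Gstp1 was a DEG in all 6. By mean FPKM it ranked 132 among the 13438 genes tested. RefSeq lists 4 pseudogenes of Gstp1 and the neighbouring copy Gstp3 in GRCr8, and how reads shared with them were counted is not given in the sources used here.

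Summed markers of some other cell types were also higher in RA, as Gstp1 was. The summed FPKM of 6 macrophage markers was 13.7 to 14.9 in CON and 16.3 to 17.7 in RA, with no DEG in edgeR among the 4 tested. Most of it was Cd14, at means of 12.9 FPKM in CON and 15.3 in RA, while Ptprc and Adgre1 stayed too low to be tested and Lyz2 had means of 0.42 and 0.346 FPKM. The summed FPKM of 6 fibroblast and perichondrium markers was 509 to 536 in CON and 555 to 590 in RA, most of it Thy1 (means of 335 and 370 FPKM). The means of Thy1, Pdgfra and Col14a1 were higher in RA and those of Postn, Tnmd and Dpt were lower, and the 1 DEG, Postn, was lower (12.2 and 5.04 FPKM). The summed FPKM of the 5 skeletal muscle markers with a row was 4.72 to 6.00 in CON and 6.96 to 7.87 in RA. Most of this sum was Des, at a CON mean of 5.09 and an RA mean of 6.72 FPKM, which was not a DEG, while Myod1 was a DEG, higher in RA, at means of 0.0932 and 0.366 FPKM. The 5 adipocyte markers summed to 3.75 to 5.22 FPKM in CON and 5.36 to 6.42 in RA, and the 2 of them tested were DEGs in opposite directions. Fabp4 was higher in RA (means of 2.67 and 4.72 FPKM) and Lpl was lower (means of 1.73 and 1.04 FPKM). Endothelial markers stayed at or below 0.178 FPKM and liver markers at or below 0.545, with Cyp2e1 at 0 in every library, while the chondrocyte markers summed to 6479 to 8502 in CON and 4049 to 4365 in RA. The part of these cell types in the rise of Gstp1 was not tested.

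Gstp1 made up most of the summed level of the family. The files hold 24 genes of the family under the patterns used, these 9 and 15 others. In CON samples 1, 2 and 3 Gstp1 made up 62.3%, 66.1% and 69.1% of their summed FPKM, and in RA samples 1, 2 and 3 it made up 78.5%, 78.7% and 77.2%. The share was higher in 3 of 3 RA samples than in any CON sample, with a mean difference of 12.3 percentage points. An exact two-sided permutation test over the 6 samples gave p = 0.1, the smallest p that 3 against 3 samples allow. The summed FPKM of all 24 genes was 534 to 653 in CON and 739 to 776 in RA. That of the 23 genes other than Gstp1 was 165 to 246 in CON and 159 to 173 in RA, where the groups overlapped (exact permutation test, p = 0.3). These sums, and so the share, hold Gstm5, which the study picked from these samples. Without Gstm5 the sum of the family was 533 to 609 FPKM in CON and 738 to 776 in RA.

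**Figure D2:**
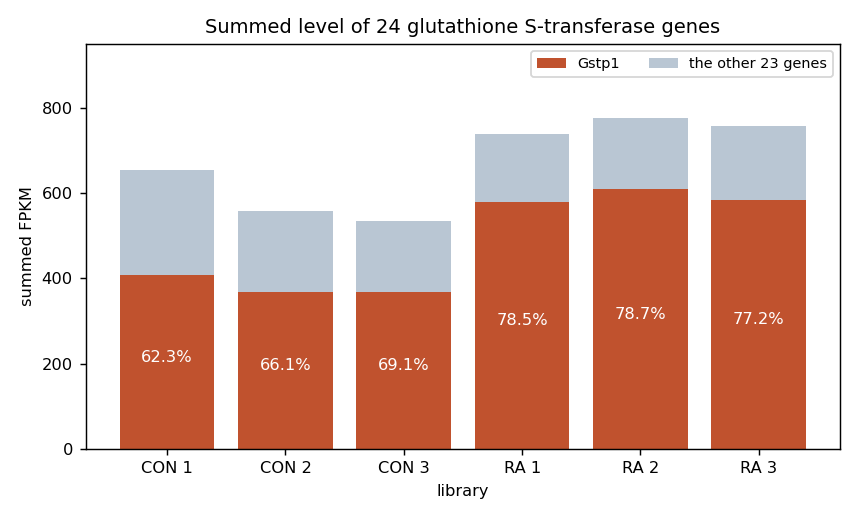
Summed FPKM of 24 glutathione S-transferase genes in each library, split into Gstp1 (red, with its share of the sum) and the other 23 genes (grey). The Gstp1 part is 368 to 407 FPKM in the CON libraries and 580.2 to 611 in the RA libraries.

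Gstm5 (ENSRNOG00000049743), a mu class gene, had the largest log2 fold change of the set and was not a DEG. Its counts were 1298, 713 and 19 in CON samples 1, 2 and 3, and 15, 20 and 101 in RA samples 1, 2 and 3. Only 2 of the 6 libraries, CON samples 1 and 2, held more than 101 reads, and CON sample 3 lay among the RA samples. On the CPM scale this was 42.3, 23.6 and 0.509 in CON and 0.5, 0.681 and 3.26 in RA. CON sample 1 was 83.1 times and CON sample 2 46.3 times as high as CON sample 3, and RA sample 3 was 6.52 times as high as RA sample 1. The groups therefore overlapped, and in FPKM the SD of CON, 21.8, was nearly as large as its mean of 23.1. The fitted difference was -3.88 on the log2 scale (SE 1.23, 95% interval -6.71 to -1.05, edgeR adjusted p = 0.0951). The call turned on CON sample 3 and on the filter. Without CON sample 3 the log2 fold change was -4.46 (adjusted p = 0.00346, edgeR) and Gstm5 was a DEG, and with no filter on low counts it was a DEG at an adjusted p = 0.0497. Over all alternatives the adjusted p ran from 0.00346 to 0.404. The log2 fold change was -2.99 without CON sample 1 and -5.21 without RA sample 3, and on the log2(FPKM + pseudocount) scale of limma it was -2.86 with a pseudocount of 0.1 and -2.42 with 1. Gstm5 was not a DEG in any of these 4 fits. Since the study picked Gstm5 from these samples, its direction is no independent evidence.

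**Figure D3:**
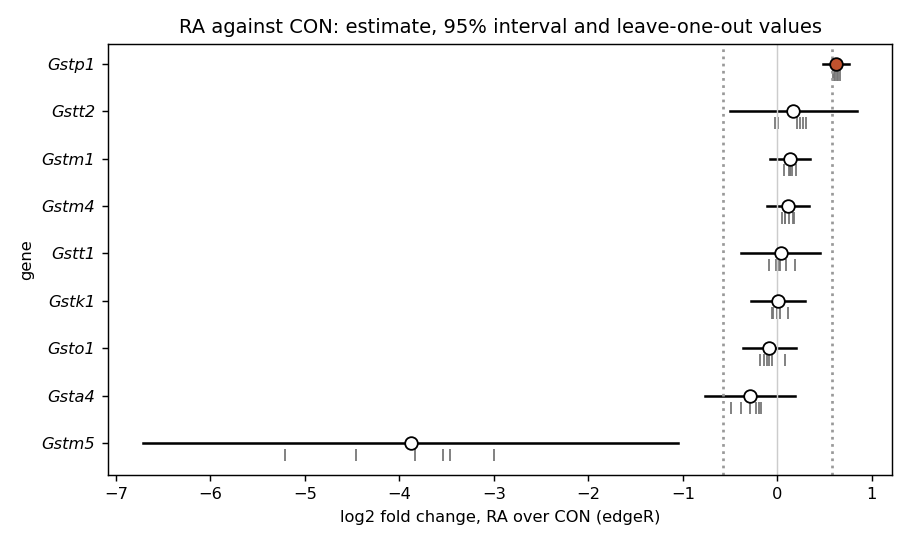
Log2 fold change of RA over CON from edgeR for the 9 genes (circles, filled where the gene is a DEG) with 95% intervals (lines), the 6 leave-one-out values (grey ticks) and the fold-change threshold of 0.58 in either direction (dotted). Gstp1 alone is filled, and the Gstm5 interval runs from -6.71 to -1.05.

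The counts of the mu class were compared library by library, since close copies can exchange reads. RefSeq places 9 mu class genes next to each other on chromosome 2 of GRCr8, from Gstm5 at one end to Gstm4 at the other. The files hold 7 mu class rows, Gstm1, Gstm3l, Gstm4, Gstm5, Gstm6, Gstm6l and Gstm7, of which 6 carry the symbol of a RefSeq gene. RefSeq also gives Gstm4 as a synonym of Gstm3, and Gstm3 as a synonym of both Gstm5 and Gstm7, so how the symbols match these copies is uncertain. Gstm5 took 34.4% of the mu class counts in CON sample 1 (95% Wilson interval 32.9 to 35.9%) and 22.6% in CON sample 2 (21.1 to 24.1%). It took 0.597% in CON sample 3 (0.382 to 0.93%), 0.774% in RA sample 1 (0.47 to 1.27%), 0.9% in RA sample 2 (0.583 to 1.39%) and 4.28% in RA sample 3 (3.53 to 5.17%). These intervals cover counting error only.

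The other mu class genes together had similar sums in the 3 CON samples. Their summed CPM was 80.5, 80.8 and 84.8 in CON samples 1, 2 and 3. It was 64.1, 74.9 and 72.9 in RA samples 1, 2 and 3. Reads shared with copies that have no row would not show in this sum, and the cause of the Gstm5 spread was not tested. The sum was lower in each RA sample than in any CON sample, as were the CPM values of 15.1% of all genes tested. Gstm7 went with it, while Gstm1 and Gstm4 had higher means in RA. Their means were 14.9 and 18.6 CPM in CON and 16.4 and 20.2 CPM in RA. With Gstm5 included the sum was 122.8, 104 and 85.3 CPM in CON and 64.6, 75.6 and 76.2 in RA. Tested as 1 feature, the sum differed by -0.53 on the log2 scale (SE 0.13, edgeR adjusted p = 0.0384), short of the fold-change threshold, and was lower in 3 of 3 RA samples. This sum holds Gstm5, which the study picked from these samples, so its p is no independent evidence either. Without Gstm5, a fit added after seeing the data, the mu class sum differed by -0.22 (SE 0.0743, edgeR adjusted p = 0.12). With Gstm5 the sum was -0.66 and a DEG without CON sample 3, and -0.39 without CON sample 1. The adjusted p was 0.0109 without CON sample 1 and 0.102 to 0.152 without any 1 of the RA samples, and 0.116 without CON sample 2. With the member genes Gstm1, Gstm4 and Gstm5 alone, the sum differed by -0.55 (edgeR adjusted p = 0.191), and Gstm7, which is not among them, had means of 48.02 CPM in CON and 33.8 in RA.

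**Figure D4:**
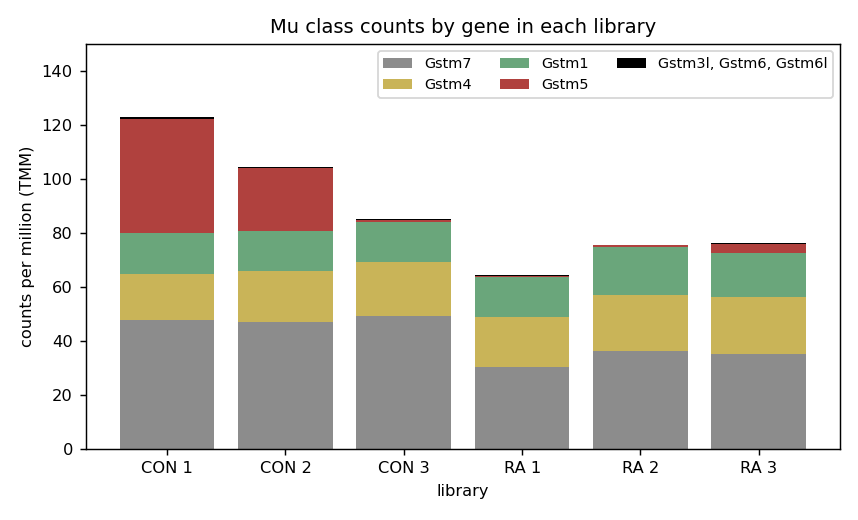
CPM (TMM-scaled) of the mu class genes stacked for each library, with Gstm5 in red. Gstm5 adds 42.3 and 23.6 CPM in CON samples 1 and 2 and 0.5 to 3.26 CPM in the other 4 libraries.

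Within the mu class, Gstm1 and Gstm4 were not DEGs. Gstm1 (ENSRNOG00000029726) was at 13.7, 13.2 and 13.01 FPKM in CON and 13.5, 16.0 and 14.7 in RA, with overlapping groups. Its log2 fold change was 0.13 (95% interval -0.080 to 0.35, adjusted p = 0.426, edgeR). Gstm4 (ENSRNOG00000019221) was at 9.74, 10.8 and 11.3 FPKM in CON and 10.8, 12 and 12.03 in RA, also overlapping. Its log2 fold change was 0.11 (95% interval -0.11 to 0.33, adjusted p = 0.515, edgeR). In both genes the interval ends below the threshold of 0.58.

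The genes nearest to Gstm5 in pattern were sought over the 6 libraries by the root mean square difference of log2 CPM, each gene centred on its own mean. The nearest was AABR07052519.1, at 1.10, with 161, 70 and 7 counts in CON and 6, 15 and 14 in RA. It was followed by LOC108348048 at 1.49, LOC103690017 at 1.55, Kansl2 at 1.72 and LOC108348137 at 1.76, while a gene with equal values in all 6 libraries would lie at 2.55 and the median over all genes was 2.56. All 5 were highest in CON sample 1, and AABR07052519.1, LOC108348048 and LOC103690017 were high in CON samples 1 and 2, as Gstm5 was. The 5 were picked from these same libraries for likeness to Gstm5, so the shared pattern is no independent evidence. Kansl2, which encodes a subunit of a histone acetyltransferase complex, had 807 counts in CON sample 1 and 51 to 90 in the others. None of the 5 was a DEG, with adjusted p from 0.11 to 0.19 (edgeR).

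The groups overlapped in the omega and kappa genes. Gsto1 (ENSRNOG00000028746), whose enzyme can reduce dehydroascorbate and arsenic compounds, was the next most abundant of the set after Gstp1. It was at 56.6, 40.5 and 42.2 FPKM in CON and 42.5, 45.4 and 44.3 in RA. CON sample 1 was the highest of the 6 libraries and the others lay close together. The log2 fold change was -0.086 (95% interval -0.37 to 0.19, adjusted p = 0.71, edgeR), and it was 0.076 without CON sample 1. Gstk1 (ENSRNOG00000016484) was at 8.65, 10.9 and 8.67 FPKM in CON and 9.69, 9.62 and 9.23 in RA, with the highest value in CON sample 2 and overlapping groups. Its log2 fold change was 0.0035 (95% interval -0.28 to 0.29, adjusted p = 0.991, edgeR), with a sign that changed between fits.

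The alpha and theta genes of the set were expressed at low levels. Gsta4 (ENSRNOG00000030449), whose enzyme acts on 4-hydroxynonenal, a product of lipid peroxidation, was at 3.97, 3.02 and 3.44 FPKM in CON and 2.40, 3.61 and 2.59 in RA. RA samples 1 and 3 lay below CON and RA sample 2 lay within it. The log2 fold change was -0.29 (95% interval -0.77 to 0.19, adjusted p = 0.44, edgeR). Gstt1 (ENSRNOG00000049771) was at 2.85, 3.39 and 4.08 FPKM in CON and 3.30, 3.81 and 3.58 in RA. Gstt2 (ENSRNOG00000052415) had the lowest group means of the set, at 0.639, 0.458 and 0.689 FPKM in CON and 0.857, 0.57 and 0.611 in RA. These came from 19 to 36 reads a library. Gstm5 was lower than Gstt2 in CON sample 3 (0.522 FPKM) and in RA sample 1 (0.527 FPKM). The groups overlapped in both theta genes. Their log2 fold changes were 0.033 (95% interval -0.39 to 0.46, adjusted p = 0.934, edgeR) and 0.17 (-0.50 to 0.84, adjusted p = 0.77). The Gsta4 and Gstt2 intervals extend past the threshold of 0.58.

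In order of mean FPKM, CON ran Gstp1, Gsto1, Gstm5, Gstm1, Gstm4, Gstk1, Gsta4, Gstt1 and Gstt2. The ranges of neighbours in this order overlapped for Gsto1 and Gstm5, Gstm5 and Gstm1, Gstm4 and Gstk1, and Gsta4 and Gstt1. In RA the order was the same but for Gstm5, which came after Gsta4 at 1.55 ± 1.61 FPKM (SD, n = 3), and for Gstt1, which came before Gsta4. There the ranges of Gstt1, Gsta4, Gstm5 and Gstt2 each overlapped with the next. For the 7 genes other than Gstp1 and Gstm5 the coefficient of variation was 2.62 to 20.4% in CON and 2.62 to 22.9% in RA.

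Among the 15 other transferase genes, 10 passed the filter and none was a DEG in edgeR's test, against 4.96% of all genes. Of the 10, 4 had an unadjusted p under 0.05, against 24% of all genes, and DESeq2 called 1, against 5.6% of all genes, and limma 0. The adjusted p alone was below 0.05 for 2 of the 10, Gstm7 and Gstz1, as it was for 9.82% of all genes, and both were lower in RA, against 4.5% of all genes. Gstm7 (ENSRNOG00000018937), the mu class gene with the most reads in all libraries, was at 23.9, 23.7 and 24.3 FPKM in CON and 15.3, 18.1 and 17.7 in RA. Its groups did not overlap, and it differed by -0.51 on the log2 scale (SE 0.0812, edgeR adjusted p = 0.00593), within the fold-change threshold. Gstz1, the zeta class enzyme of tyrosine breakdown, was at 15.5 ± 0.967 and 12.3 ± 0.753 FPKM (SD, n = 3 each), which is -0.34 on the log2 scale (edgeR adjusted p = 0.0323, 0.00984 to 0.137 over the alternatives). Gsta6 was at 0.575 ± 0.131 and 1.09 ± 0.13 FPKM, which is 0.91 on the log2 scale (edgeR adjusted p = 0.0512, 0.0227 to 0.188 over the alternatives), and was the gene DESeq2 called. Mgst1, a microsomal transferase, was at 4.33 ± 0.0923 and 6.05 ± 0.422 FPKM (SD, n = 3 each), which is 0.47 on the log2 scale (edgeR adjusted p = 0.0569, 0.0152 to 0.182 over the alternatives). Gsta1 was at 38.5 FPKM in CON sample 1 and 14.4 to 19.9 in the other 5 libraries. The median log2 fold change of the 10 genes was -0.20.

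The other genes of the glutathione pathway are given by list, and over all genes tested 4.96% were DEGs. Of 19 genes of glutathione synthesis, recycling and breakdown, 17 were tested and 1 was a DEG, or 5.88%, with a median log2 fold change of -0.085. It was Gss, glutathione synthetase, which rose from 22.6, 27.3 and 27.1 FPKM in CON to 39.1, 41.0 and 38.6 in RA, or 0.61 on the log2 scale (SE 0.086, edgeR adjusted p = 0.00317). Without CON sample 1 it was 0.52 (edgeR adjusted p = 4.45e-05), so it missed the fold-change threshold only. Slc7a11, the cystine transporter, was at 4.68 ± 0.23 and 3.21 ± 0.225 FPKM (SD, n = 3 each), which is -0.56 on the log2 scale (edgeR adjusted p = 0.00235), just inside the threshold. It was a DEG without CON sample 1 (-0.58) and without RA sample 1 (-0.61). Gclc and Gclm, the subunits of the enzyme of the rate-limiting step, had log2 fold changes of 0.034 and 0.11.

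Of 17 peroxidase, glutaredoxin and related genes, 15 were tested and 1 was a DEG, or 6.67%. Gpx3, the secreted glutathione peroxidase, rose from 32.5, 30.6 and 33.2 FPKM in CON to 61.6, 68.5 and 71.5 in RA, or 1.05 on the log2 scale (SE 0.0788, edgeR adjusted p = 1.27e-04). The median of the 15 was -0.045. Of 12 genes of conjugate export and processing, 9 were tested and none was a DEG in edgeR or DESeq2, with 3 at an unadjusted p under 0.05, against 24% of all genes. The median was 0.19, against -0.0057 over all genes. An unadjusted p under 0.05 was also reached by 7 of 17 genes of synthesis, recycling and breakdown and 5 of 15 of the peroxidase list. It was reached by 8 of 14 other phase II and NRF2 genes. Each of these lists held such genes higher and lower in RA. The exporter Abcc1 had a difference of 0.28 on the log2 scale (edgeR adjusted p = 0.0185).

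Of 15 other phase II and NRF2 genes, 14 were tested and 2 were DEGs, or 14.3%, with a median of 0.11. Akr1b8, an aldo-keto reductase, rose from 6.71 ± 1.07 to 15.7 ± 1.16 FPKM (SD, n = 3 each), which is 1.22 on the log2 scale (edgeR adjusted p = 3.92e-04). Me1, the cytosolic malic enzyme, fell from 61.9 ± 10.4 to 39.9 ± 1.43 (FPKM, SD, n = 3), which is -0.65 on the log2 scale (edgeR adjusted p = 0.00698). Without CON sample 1 it was -0.50 (edgeR adjusted p = 3.13e-05), so it missed the fold-change threshold only. Nqo1, a classical NRF2 target, was at 317 ± 2.27 and 392 ± 10.4 FPKM, which is 0.29 on the log2 scale (edgeR adjusted p = 0.00835), and Nfe2l2, the gene of NRF2, had 0.17 (adjusted p = 0.252, edgeR). Hmox1, another target, had a difference of -0.21 on the log2 scale (edgeR adjusted p = 0.0734).

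**Figure D5:**
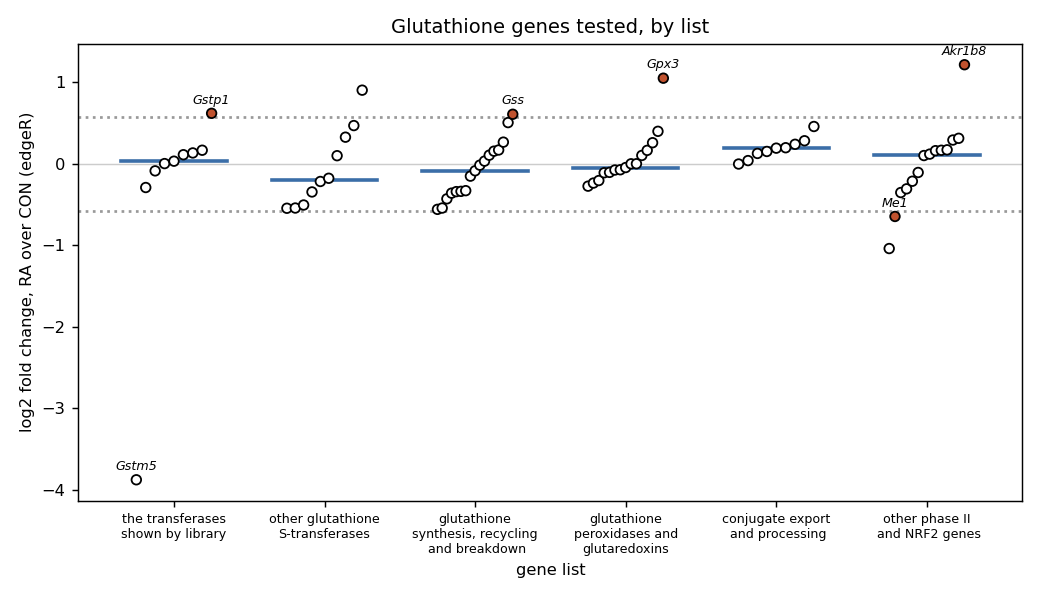
Log2 fold change of RA over CON from edgeR for each tested gene of the 6 lists (circles, filled and named where the gene is a DEG), with the list median (blue bar) and the threshold of 0.58 in either direction (dotted). The medians lie between -0.20 and 0.19, and Gstm5 stands alone at -3.88.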

How the data were processed

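Poly(A) RNA was measured in 3 CON and 3 RA samples, grouped and numbered from the sample titles. For each sample the authors deposited raw read counts and FPKM for 18923 genes. These FPKM divide a count by gene length and library total. The submitters' processing notes list HISAT2, HTSeq 0.13.5 and the build Rnor_6.0; strand and multi-mapping settings are not given in the sources used here, so counts of close copies are uncertain.

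Counts were fitted with edgeR 4.0.16 in R 4.3.3 (quasi-likelihood test, TMM, filterByExpr with a minimum count of 10, no covariates), Benjamini-Hochberg adjusted over 13438 genes. Standard errors came from the F statistic. DESeq2 1.42.0, limma 3.58.1 on log2(FPKM + 0.1 or 1), other scalings, filters and thresholds, a replicate block and leaving out each sample were alternatives. Libraries held 29370025 to 38007486 counts, and intervals of shares (95%, Wilson) and floors of 3 counts cover counting error only.

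The genes and lists were chosen with earlier results of these data known. Named genes were all members, called genes of the lists and the 5 genes nearest to Gstm5 in pattern. Others were chosen after their values were seen: Gstm7, Gstz1, Gsta1, Gsta3, Gsta6, Mgst1, Slc7a11, Slc1a4, Anpep, Ggct, Gclc, Gclm, Abcc1, Nqo1, Txnrd1, Ugdh, Ugt1a6, Nfe2l2, Hmox1, Des, Myod1, Fabp4, Lpl and the macrophage and fibroblast markers. RefSeq symbols (GRCr8) matched all 10 genes.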

Additional observations from a re-analysis of the deposited data

How the results depend on the processing

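Gstp1 kept its direction and its call under all 15 alternatives, with log2 fold changes of 0.59 to 0.67. The number of transferase genes called was 1. By the addition of Gstm5 it moved to 2 with no filter on low counts (3.7% of all genes called) and without CON sample 3 (4.82%). Gstm5 was also added at an unadjusted p below 0.05 with the fold-change threshold, where the share of all genes was not computed. Leaving out each sample in turn gave 1 to 2 (3.53 to 5.54% of all genes). Among the other transferases the number moved from 0 to 1, by Gsta6, in DESeq2 and with the total count alone. A robust dispersion (chosen after seeing the data) also called Gsta6. So did an unadjusted p with the fold-change threshold, where again no share of all genes was computed. The number was 2 at the adjusted p alone, and 0 to 1 with each sample left out. At the adjusted p alone the numbers were 5 of 17 for glutathione synthesis, recycling and breakdown and 6 of 14 for phase II genes. For conjugate export the number was 1 of 9, and over all genes the share was 9.82%. In the first list Gss and Anpep were higher in RA and Ggct, Slc7a11 and Slc1a4 lower. Among the phase II genes Nqo1, Txnrd1 and Akr1b8 were higher and Me1, Ugdh and Ugt1a6 lower. With each sample left out the numbers of DEGs were 1 to 2 for glutathione synthesis, recycling and breakdown. There Slc7a11 replaced Gss without CON sample 1 and joined it without RA sample 1. For phase II genes the numbers were 1 to 2, with Me1 lost without CON sample 1. Leaving out single samples put the summed mu class at -0.66 to -0.39, past the threshold for CON sample 3, and leaving out Gstm5 (chosen after seeing the data) put it at -0.22. Signs changed, far from any call, for Gstk1 with upper-quartile scaling (-0.0065) and, with single samples left out, for Gstk1 (-0.055 to 0.12), Gstt1 (-0.089 to 0.19), Gstt2 (-0.025 to 0.30) and Gsto1 (-0.18 to 0.076). The cause was not tested.

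Same-numbered samples did not deviate together (correlations of 0.093, -0.012 and 0.012), and not every sample correlated best with its own number. A replicate block gave 684 DEGs against 667, left 1 transferase called and put the mu class sum at -0.52. No member has several identifiers, so that alternative was not run. The filter at an FPKM of at least 1 in 3 samples removed Gstt2.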
